A study of Homo sapiens with 12 samples.

Results

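The response to niraparib was followed in K562 cells in which DNPH1 was repressed together with one other gene. All dual-sgRNA constructs were used that carried a DNPH1 sgRNA at either position and a sgRNA of another gene at the other. They were 4336 of 1301881 constructs, with 8 constructs for each of 542 partner genes, which are all other genes of the 543 in the library. All 542 partners passed the minimum of 100 summed reads at the start of treatment (T0, mean of 4 libraries), so none was left out. Each partner was set against the same partner paired with the 55 non-targeting sgRNAs. DNPH1 was chosen by its own response to the drug with non-targeting sgRNAs, so that response is given as a description, without a test.

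K562 is a human chronic myelogenous leukemia line, and these cells carried a CRISPR interference machinery, which represses transcription at the site a sgRNA targets. Niraparib inhibits the DNA damage sensors PARP1 and PARP2. Each of 2 screens, run in 2022 and 2023, had 2 replicate cultures, and each culture gave a T0 library on day 9 after transduction and was then divided between niraparib and vehicle (DMSO). The treated arm of 2022 had 2 µM niraparib for 3 days and was harvested with its vehicle arm on day 18. In 2023 the dose began at 2 µM and went up to 3 µM, the drug stayed for 4 days, and both arms were harvested on day 19. All cells came from 1 line and all carried a library construct. The knockdown of DNPH1 itself was not measured in the files used here and rests on 2 sgRNAs. Their names place them on the minus strand at positions 43197137 and 43197183 of a genome build that is not given in the sources used here. CUL9, which is not in the library, lies within 5000 bases of DNPH1 in the RefSeq annotation. Whether the DNPH1 sgRNAs also repress CUL9 was not tested.

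DNPH1 is a hydrolase that cleaves hydroxymethyl-deoxyuridine monophosphate, a modified nucleotide, and so keeps it out of the pool from which DNA is built. In human cells that lack it, hydroxymethyluracil enters DNA and the glycosylase SMUG1 cuts it out, which leaves single-strand breaks as repair intermediates. PARP1 binds such breaks, and PARP inhibitors hold it there. The glycosylases SMUG1, UNG, TDG and MBD4, the endonuclease APEX1 and the nucleotide enzymes DCTD and DUT are not among the library's genes.

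The 12 libraries held 182.6 to 460.7 megareads. A DNPH1 pair, summed over its 8 constructs, had a median of 845 reads in niraparib libraries, 3087 reads in vehicle libraries and 2169 reads at T0, taking the mean of 4 libraries for each partner. Fewer than 100 reads on average under niraparib were found for 2 partners. The reads came from PCR without molecular identifiers, and the replicates are the cultures, so all errors below are spreads over the 4 cultures (SD, n = 4) or standard errors (SE) of a fit over all 12 libraries.

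DNPH1 with non-targeting sgRNAs was depleted by niraparib in every culture. Its response, the log2 ratio of niraparib over vehicle reads relative to constructs with 2 non-targeting sgRNAs, was -2.01 and -1.83 in 2022 and -1.81 and -1.79 in 2023, a mean of -1.86 ± 0.10. The 4 values lay close together, with the first culture of 2022 the lowest. Without drug, DNPH1 with non-targeting sgRNAs grew at nearly the level of the controls, with a log2 ratio of vehicle over T0 of -0.03 ± 0.03. The second sgRNA gave the lower response, -2.42 ± 0.17, and the first gave -1.44 ± 0.08. With the DNPH1 sgRNA in the first position the response was -1.94 ± 0.10, and in the second position -1.77 ± 0.10. The difference between the sgRNAs was thus larger than the spread over cultures. The difference between positions was smaller than that between the sgRNAs and had the same sign in all 4 cultures.

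The question of the following values is what a second knockdown adds when DNPH1 is already repressed. The response of a partner in the DNPH1 background is the log2 ratio of niraparib over vehicle reads of the pair, minus that of DNPH1 with non-targeting sgRNAs. A value below 0 means that the pair was depleted further than DNPH1 alone, and a value above 0 that it was depleted less or gained. In the DNPH1 background 111 partners were lower and 312 were higher, by edgeR's quasi-likelihood test with a Benjamini-Hochberg adjusted p under 0.05. These are 20.5% and 57.6% of the partners. Over all ordered gene pairs of the library, 23.7% were lower and 25.3% were higher in the same test, so the share of lower calls was near the background and the share of higher calls was above it. Both depend on where 0 is set, since 214 partners were lower and 240 higher with the DNPH1 background centred on the median of all partners. The median response was 0.23. Each value is set against the same 220 constructs of DNPH1 with non-targeting sgRNAs. With single non-targeting sgRNAs in place of a partner, responses in the DNPH1 background ran from -0.33 to 0.32. Some of these sgRNAs passed the same edgeR test in either direction, among them both ends of that range (adjusted p = 0.00091 and 0.020). Passing alone thus does not set a partner apart from them. Outside that range lay 62 of the lower and 245 of the higher partners.

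The response difference is the partner's response in the DNPH1 background minus its response with non-targeting sgRNAs, and a value of 0 means that both knockdowns add up on the log2 scale. It was higher with DNPH1 for 358 partners and lower for 40, or 66.1% and 7.38%. Among all gene pairs 14.5% were higher and 9.52% were lower. The share of higher partners was above this background, and that of lower partners was below it. Higher calls had the same sign in all 4 cultures for 336 of 358 partners, and lower calls for 33 of 40. The median difference was 0.30, with a median SD over cultures of 0.12. Of the 55 non-targeting sgRNAs paired with DNPH1 and tested as partners, 8 passed, 3 higher and 5 lower, and their differences ran from -0.34 to 0.32. Beyond that range lay 261 of the higher and 6 of the lower partners. The direction of small differences depends on where 0 is set. With the DNPH1 background centred on the median of all partners, the differences moved by -0.32 and the counts were 214 higher and 220 lower.

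**Figure D1:**
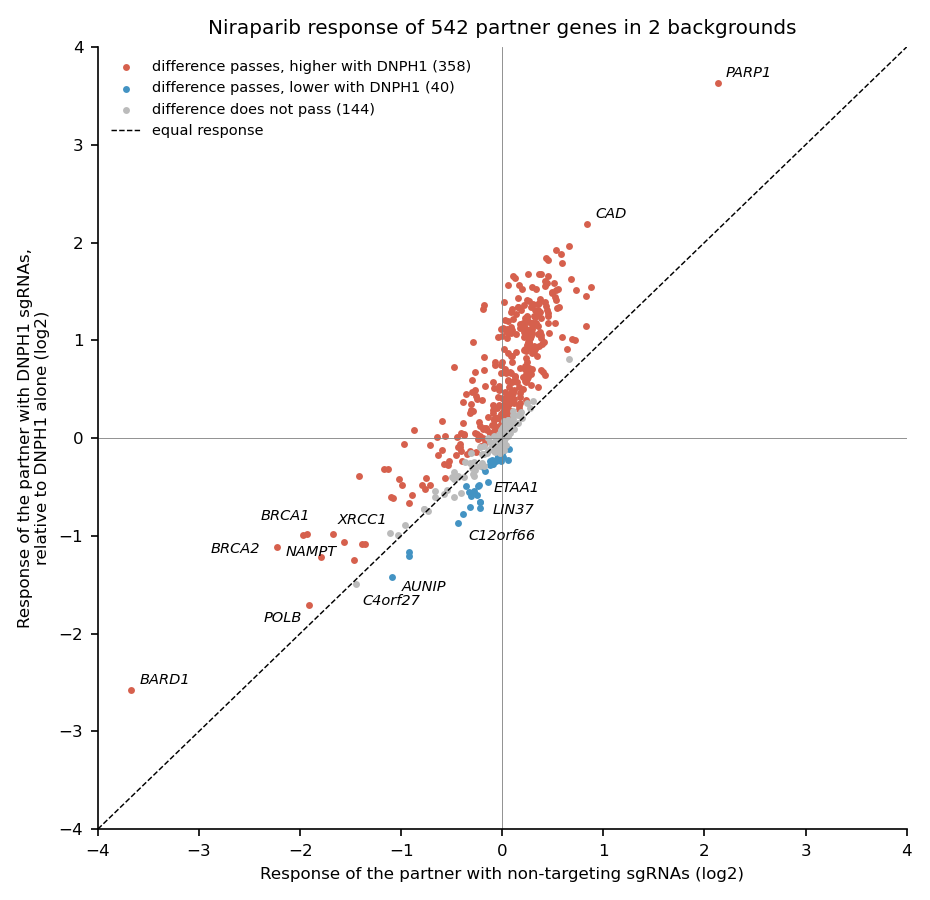
Niraparib response of each of 542 partners with DNPH1 sgRNAs, relative to DNPH1 alone (vertical axis, log2), against its response with non-targeting sgRNAs (horizontal axis, log2), as fitted values. Red points are the 358 partners whose difference passed as higher with DNPH1, blue points the 40 that passed as lower, grey points the other 144, and the dashed line marks equal responses. Most points lie above the line, PARP1 is at the top right and BARD1 at the bottom left.

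PARP1, the target of the drug, gave the highest response in the DNPH1 background. Its response with DNPH1 was 4.23 and 3.30 in 2022 and 3.50 and 3.52 in 2023, against 2.61, 1.79, 2.08 and 2.08 with non-targeting sgRNAs. The 2 sets did not overlap. The difference was 1.63, 1.50, 1.42 and 1.44, a mean of 1.50 ± 0.09, with an adjusted p of 1.27e-36. It was thus about as large in each culture, although the first culture of 2022 had the highest response in both backgrounds. As a residual from a curve of degree 2 through all partners on their own response, where PARP1 lies at the far end, the difference turned to -0.97. Read from the other side, DNPH1 repression on top of PARP1 repression gave a response of -0.36, against -1.86 on top of non-targeting sgRNAs. The pair itself was enriched by the drug, with 9123, 8162, 7043 and 6002 niraparib reads against 2666, 3715, 1878 and 1727 vehicle reads. Relative to constructs with 2 non-targeting sgRNAs, that is a response of 1.78 ± 0.32.

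Other genes of ADP-ribose turnover did not behave like PARP1. PARP2, the second target of the drug, had a difference of 0.04 ± 0.16, and PARG, which removes poly(ADP-ribose), one of 0.02 ± 0.11; neither passed the test, and they were -0.28 and -0.30 with the background centred on the median of all partners. Without the first culture of 2023, PARP2 passed as higher with 0.12. C4orf27, now named HPF1, is the partner that directs PARP1 to serine residues. It was depleted in both backgrounds, with -1.37, -1.50, -1.59 and -1.51 with DNPH1 against -1.31, -1.32, -1.56 and -1.58 with non-targeting sgRNAs. These 2 sets overlapped, and the difference of -0.05 ± 0.10 did not pass (adjusted p = 0.605). It passed as lower with the centred background, at -0.37, with DNPH1 in the second position alone, at -0.25, and as a residual from the curve on own response, at -0.26. C4orf27 was the third lowest partner in the DNPH1 background. CHD1L, a chromatin remodeler that binds poly(ADP-ribose), had a difference of 0.24 that passed but turned to -0.08 with the centred background. Of the 5 measured genes of this list, 2 were higher, against 66.1% of all partners, and none was lower. Their median difference was 0.04 against 0.30 for all partners, and 1 was higher and 3 were lower with the centred background.

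Genes of single-strand break repair were mostly depleted in both backgrounds, and less so with DNPH1. POLB, the polymerase that fills the gap left by base excision, had responses of -1.66, -1.49, -1.87 and -1.81 with DNPH1 against -1.74, -1.75, -2.07 and -2.07 with non-targeting sgRNAs. Its difference of 0.20 ± 0.08 was above 0 in all 4 cultures and passed (adjusted p = 0.00198), but it did not pass without the second culture of 2022 and turned to -0.12 with the centred background. XRCC1, the scaffold that brings polymerase and ligase to the break, had -0.60, -0.87, -1.08 and -1.40 with DNPH1 against -1.25, -1.67, -1.87 and -1.88 with non-targeting sgRNAs. The 2 sets overlapped, yet within every culture the response with DNPH1 was the less negative one, by 0.68 ± 0.15 (adjusted p = 5.8e-14). LIG1, the replicative DNA ligase, had a response near 0 with DNPH1, 0.01 ± 0.18, against -0.64 ± 0.12 with non-targeting sgRNAs, and its difference of 0.65 ± 0.19 passed. LIG3, the ligase that partners XRCC1, did not pass, with -0.89 ± 0.26 against -0.96 ± 0.10. It passed as higher without the first culture of 2023, with a difference of 0.21, and turned to -0.25 with the centred background. In the list of 5, 4 were higher by difference, against 66.1% of all partners, and none was lower. With the centred background 3 were higher and 1 lower. In the DNPH1 background 4 of 5 were lower than DNPH1 alone, against 20.5% of all partners. NAMPT, which makes the precursor of NAD, the substrate of PARP1, had -1.0 ± 0.23 with DNPH1 against -1.97 ± 0.11 with non-targeting sgRNAs. Its difference of 0.97 ± 0.17 was above 0 in every culture.

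Homologous recombination genes repair double-strand breaks from a sister copy, and knockdown of most of them further depleted DNPH1 cells under the drug. Of 29 measured genes, 20 were lower than DNPH1 alone in the DNPH1 background, against 20.5% of all partners. A further 7 were higher, against 57.6% of all partners, and 2 did not pass. The median response of the 29 genes was -0.39 with DNPH1 and -0.50 with non-targeting sgRNAs. BARD1, the ring-finger partner of BRCA1, was the lowest of all partners, at -1.51, -2.78, -3.15 and -2.83 with DNPH1 against -2.97, -3.78, -3.91 and -3.97 with non-targeting sgRNAs. The first culture of 2022 was the least depleted in both. The difference of 1.09 ± 0.29 was above 0 in each culture (adjusted p = 3.37e-11), and it rests on 97, 80, 54 and 52 niraparib reads. It turned to -0.78 as a residual from the curve on own response, at whose other end BARD1 lies. BRCA2, which loads the recombinase on DNA, had -0.10, -1.35, -1.42 and -1.52 with DNPH1 against -1.34, -2.33, -2.60 and -2.59 with non-targeting sgRNAs. Here too the first culture of 2022 stood apart in both backgrounds, while the difference was even, 1.12 ± 0.11. BRCA1 had a response of -0.99 ± 0.41 with DNPH1 against -1.93 ± 0.18 with non-targeting sgRNAs, a difference of 0.94 ± 0.23.

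RAD54L, a motor protein of strand exchange, and RBBP8, which starts end resection, were among the 6 lowest partners in the DNPH1 background, with -1.23 ± 0.65 and -1.21 ± 0.60. RBBP8 differed between the backgrounds by 0.58 ± 0.37. For RAD54L the difference of 0.22 ± 0.21 did not pass without the first culture of 2022 or the second of 2023 and turned to -0.10 with the centred background. Across the 29 genes the difference was higher with DNPH1 for 18, a share near the 66.1% of all partners, and lower for 4, and 12 were higher and 11 lower with the centred background. RPA2, which coats single-stranded DNA, had a response of 1.04 with DNPH1 and a difference of 1.04. The 4 lower genes were AUNIP, C17orf53, MCM9 and EXO1, named after their values were seen. AUNIP promotes end resection together with RBBP8. It had -1.21, -1.40, -1.54 and -1.51 with DNPH1 against -1.07, -1.09, -1.10 and -1.11 with non-targeting sgRNAs. The 2 sets did not overlap, and AUNIP was the one partner both among the 6 lowest in the DNPH1 background and among the 12 lowest by difference. Its difference was -0.15 with the first DNPH1 sgRNA alone, which did not pass, and -0.68 with the second.

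Among 17 measured Fanconi anemia genes, which act on DNA crosslinks, 14 were lower than DNPH1 alone and 1 was higher in the DNPH1 background. Over all partners 20.5% were lower and 57.6% were higher in that test. The median response of the 17 genes was -0.58 with DNPH1 and -0.80 with non-targeting sgRNAs. The difference was higher for 11, a share near that of all partners, and lower for 1, with a median of 0.28 against 0.30 for all partners, and 1 was higher and 7 were lower with the centred background. FANCB had -1.07 with DNPH1 against -1.56 with non-targeting sgRNAs. SLX4, a scaffold for nucleases, had -0.60 against -1.10. The one lower gene was UBE2T, the ubiquitin-conjugating enzyme of the pathway, with a difference of -0.24 ± 0.21. In the list of structure-specific nucleases, which shares SLX4, 2 of 5 were higher, against 66.1% of all partners, and none was lower. With the centred background 1 was higher and 4 were lower. ERCC1 had 0.17, which turned to -0.15 with the centred background.

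The 12 partners with the most negative differences were LIN37, C12orf66, ETAA1, G3BP1, LZTR1, GPS2, CBL, AUNIP, KIDINS220, ZAR1L, RHOXF2 and CSNK2A1, with adjusted p-values from 8.98e-14 to 0.00016. The first 6 lay below all 55 non-targeting sgRNAs. LIN37, a subunit of the DREAM complex that represses cell cycle genes, had -0.67, -0.65, -0.87 and -0.66 with DNPH1 against -0.20, -0.21, -0.20 and -0.25 with non-targeting sgRNAs. The sets were far apart, by -0.50 ± 0.12, and LIN37 alone grew like the controls, at -0.04 ± 0.04. ETAA1, which binds RPA and activates the checkpoint kinase ATR, had -0.83, -0.41, -0.78 and -0.63 with DNPH1 against -0.28, -0.25, -0.16 and -0.20 with non-targeting sgRNAs. Its sets did not overlap either, although the cultures of 2022 differed from each other, and the difference was -0.44 ± 0.20. ETAA1 alone also grew like the controls, at -0.03 ± 0.01. G3BP1, a core protein of stress granules, had -0.66 ± 0.15 with DNPH1 against -0.22 ± 0.04 with non-targeting sgRNAs.

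C12orf66, now named KICS2, anchors the complex that restrains mTORC1, and GPS2 belongs to a transcriptional corepressor. C12orf66 had -0.56, -0.83, -1.0 and -1.12 with DNPH1 against -0.41, -0.44, -0.46 and -0.44 with non-targeting sgRNAs. The 4 values with DNPH1 spread widely, and all were below those with non-targeting sgRNAs. GPS2 had tighter values, -0.77 ± 0.04 with DNPH1 against -0.39 ± 0.02 with non-targeting sgRNAs. Without drug these knockdowns alone outgrew the controls, C12orf66 at 0.75 ± 0.11 and GPS2 at 0.51 ± 0.09, as did CBL, a ubiquitin ligase that turns down receptor signaling, at 0.38 ± 0.06. As residuals from a curve of degree 2 through all partners on their own growth, the differences of C12orf66, GPS2 and CBL turned to 0.25, 0.07 and 0.01, while those of LIN37, ETAA1 and G3BP1 were -0.51, -0.44 and -0.65. LZTR1, an adaptor that sends RAS proteins to degradation, had -0.71 ± 0.23 with DNPH1 against -0.32 ± 0.07 with non-targeting sgRNAs. ZAR1L lies within 5000 bases of BRCA2 in the RefSeq annotation, and whether its sgRNAs also repress BRCA2 was not tested. LIN37, LZTR1, GPS2, CBL and AUNIP also have protein-coding neighbours within 5000 bases, none of them in the library. Those of LIN37 are U2AF1L4, PSENEN, HSPB6 and PROSER3, and repression of such neighbours was not tested either. ZAR1L had -1.20 ± 0.23 with DNPH1 against -0.92 ± 0.20 with non-targeting sgRNAs, a difference of -0.28 ± 0.12, while that of BRCA2 was 1.12. CSNK2A1, the catalytic subunit of casein kinase 2, did not share the depletion of the others with non-targeting sgRNAs, where it was at 0.06 ± 0.01, and it had -0.22 ± 0.14 with DNPH1.

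**Figure D2:**
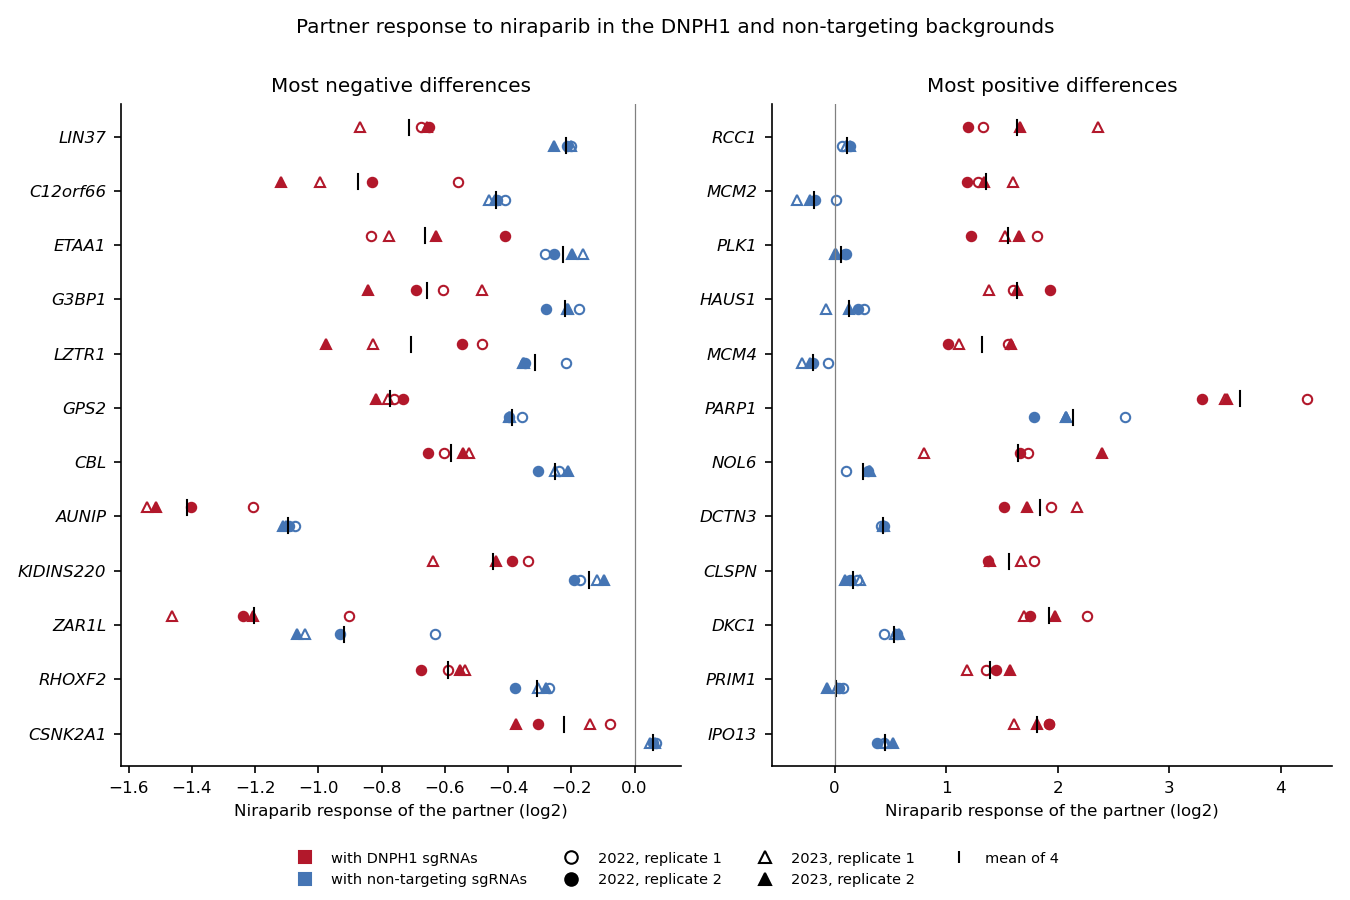
Niraparib response (log2) of the 12 partners with the most negative (left) and the 12 with the most positive (right) differences, in each culture, with DNPH1 sgRNAs (red, upper row of each gene) and with non-targeting sgRNAs (blue, lower row). Circles are 2022, triangles 2023, open symbols replicate 1, filled symbols replicate 2 and bars the mean of 4. LIN37 sits at -0.71 ± 0.11 against -0.22 ± 0.03, and PARP1 at 3.64 ± 0.41 against 2.14 ± 0.34.

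The 12 partners with the most positive differences were RCC1, MCM2, PLK1, HAUS1, MCM4, PARP1, NOL6, DCTN3, CLSPN, DKC1, PRIM1 and IPO13, with adjusted p-values from 1.27e-36 to 1.16e-05. Apart from PARP1, these genes serve DNA replication, mitosis, nuclear transport or ribosome making, and their loss alone slowed growth. As residuals from the curve on own growth, 6 of the 12 did not pass: MCM2 with 0.28, HAUS1 with 0.33, NOL6 with 0.15, DCTN3 with 0.15, DKC1 with 0.16 and IPO13 with 0.13. RCC1, the exchange factor of the GTPase Ran, had 1.33, 1.19, 2.36 and 1.66 with DNPH1 against 0.06, 0.14, 0.10 and 0.14 with non-targeting sgRNAs. The first culture of 2023 was the highest, and the difference of 1.53 ± 0.52 rests on 162, 152, 175 and 93 niraparib reads. MCM2, a subunit of the replicative helicase, had 1.28, 1.19, 1.60 and 1.34 with DNPH1 against 0.01, -0.18, -0.34 and -0.22 with non-targeting sgRNAs. PLK1, a mitotic kinase, had 1.55 ± 0.25 against 0.05 ± 0.05, and HAUS1, a subunit of the augmin complex of the spindle, had 1.64 ± 0.23 against 0.13 ± 0.15. In none of these did the sets overlap. NOL6, a ribosome assembly factor, had the least certain value of the group, 1.65 ± 0.65 against 0.26 ± 0.10, with as few as 30 niraparib reads in a library.

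CLSPN, which passes the checkpoint signal from ATR to CHK1, had 1.56 ± 0.21 with DNPH1 against 0.16 ± 0.06 with non-targeting sgRNAs. In the ATR-CHK1 list, 6 of 11 genes were higher, a share below the 66.1% of all partners, and ETAA1 was the only lower one. With the centred background 5 were higher and 5 lower. ATR itself had 0.08 with DNPH1 against -0.87 with non-targeting sgRNAs. In the replisome list, 19 of 23 genes were higher and none was lower, with a median difference of 0.70 against 0.30 for all partners. This share of higher genes was above the 66.1% of all partners. With the centred background 14 were higher and 5 lower. MCM4 had a difference of 1.51, the primase subunit PRIM1 1.38 and the clamp loader subunit RFC3 1.28. The genes of this list had a median growth alone of -0.88. PLK1 lies within 5000 bases of DCTN5 and MCM4 within 5000 bases of PRKDC, both of which are in the library. Protein-coding neighbours that are not in the library lie within that distance of MCM2, PLK1, HAUS1, DCTN3, CLSPN, DKC1 and IPO13. DCTN5, a dynactin subunit, had a difference of 0.81 ± 0.21 and PRKDC, the kinase of end joining, one of -0.13 ± 0.08 that did not pass.

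Nucleotide and one-carbon metabolism was represented by 7 genes. All 7 were higher than DNPH1 alone in the DNPH1 background, against 57.6% of all partners. The 7 genes had a median response of 1.15 with DNPH1 and 0.64 with non-targeting sgRNAs, and a median growth alone of -1.68. For the 121 partners with growth above -2 and up to -1, the median responses were 1.12 and 0.26. CAD, which starts pyrimidine synthesis, had 2.38, 1.58, 3.01 and 1.87 with DNPH1 against 0.61, 0.55, 0.95 and 1.26 with non-targeting sgRNAs. It was the second highest partner in the DNPH1 background after PARP1, and alone it had the growth of -4.09 ± 0.34. UMPS, which ends the same pathway, had a difference of 1.21 and MTHFD1, a folate enzyme, one of 0.99. SHMT2, the mitochondrial serine hydroxymethyltransferase, had a smaller one of 0.32 ± 0.22, which did not pass without the second culture of 2022 or that of 2023. By count, 6 of the 7 differences were higher, against 66.1% of all partners, and none was lower. With the centred background 3 were higher and 2 lower. NOP10 and DKC1, subunits of the same small nucleolar ribonucleoprotein, and TAF2, a subunit of the general factor TFIID, completed the 6 highest in the DNPH1 background with DCTN3, CAD and PARP1. Their responses with DNPH1 were 1.97 ± 0.21, 1.92 ± 0.26 and 1.89 ± 0.16.

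In the 53BP1-shieldin axis, which holds back end resection, 7 of 11 genes were higher and none was lower by difference, with a median of 0.20, a share of higher genes near the 66.1% of all partners, and 1 was higher and 6 were lower with the centred background. TP53BP1 had 1.19, 0.63, 0.47 and 0.54 with DNPH1 against 0.55, 0.12, 0.13 and 0.10 with non-targeting sgRNAs. The first culture of 2022 was the highest in both. The difference of 0.48 ± 0.12 was above all non-targeting sgRNAs, while the growth of TP53BP1 alone was -0.20 ± 0.19. RNF8, a ubiquitin ligase upstream of 53BP1, had a difference of 0.37. FAM35A, a shieldin subunit, had 0.33, and CTC1, of the CST complex, had 0.31, which turned to -0.01 with the centred background. In the list of non-homologous and polymerase theta end joining, 4 of 8 were higher, a share below that of all partners, and 1 was lower. With the centred background 1 was higher and 5 were lower. The Ku subunits XRCC5 and XRCC6 had 0.97 and 0.36 and the end-joining factor NHEJ1 0.39, and LIG4 had 0.17, which did not pass without the first culture of 2022 or either culture of 2023 and turned to -0.15 with the centred background.

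The smaller lists followed with fewer genes, and their counts stand beside 66.1% higher and 7.38% lower over all partners. Among topoisomerases and the BLM complex, 5 of 6 were higher, and 3 were higher and 2 lower with the centred background. TOP2A had a difference of 1.15, TOP1 1.00 and the helicase BLM 0.58, and RMI2, a BLM cofactor, had 0.26, which turned to -0.06 with the centred background. Of the 4 phosphatase genes, all were higher, and 1 was with the centred background. PPP2R1A, the scaffold of PP2A, had 0.67, its partners PPP2R2A and PPP2CA 0.33 and 0.28, and PPP4C, the catalytic subunit of a related phosphatase, 0.29, and the last 2 turned to -0.04 and -0.03 with the centred background. The phosphatases PPP2R1A, PPP2R2A and PPP2CA were also enriched with non-targeting sgRNAs, by 0.88, 0.68 and 0.72. In RNase H2, which removes ribonucleotides from DNA, 2 of 3 were higher, and 1 was higher and 2 were lower with the centred background. RNASEH2C had 0.60 and RNASEH2B 0.16, which did not pass without the first culture of 2022 and turned to -0.15 with the centred background, and RNASEH2A had -0.04 and did not pass. MSH6, of mismatch repair, had 0.27, which turned to -0.04 with the centred background. Of 3 fork reversal genes, 1 was lower, and all 3 were with the centred background: the translocase SMARCAL1, with -0.16, did not pass without the second culture of 2022 or the first of 2023, and ZRANB3 and HLTF had 0.09 and -0.01. Both measured genes of the SMC5-SMC6 complex and both of NAD supply were higher, and neither of 2 post-replication repair genes passed, while both were lower with the centred background.

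**Figure D3:**
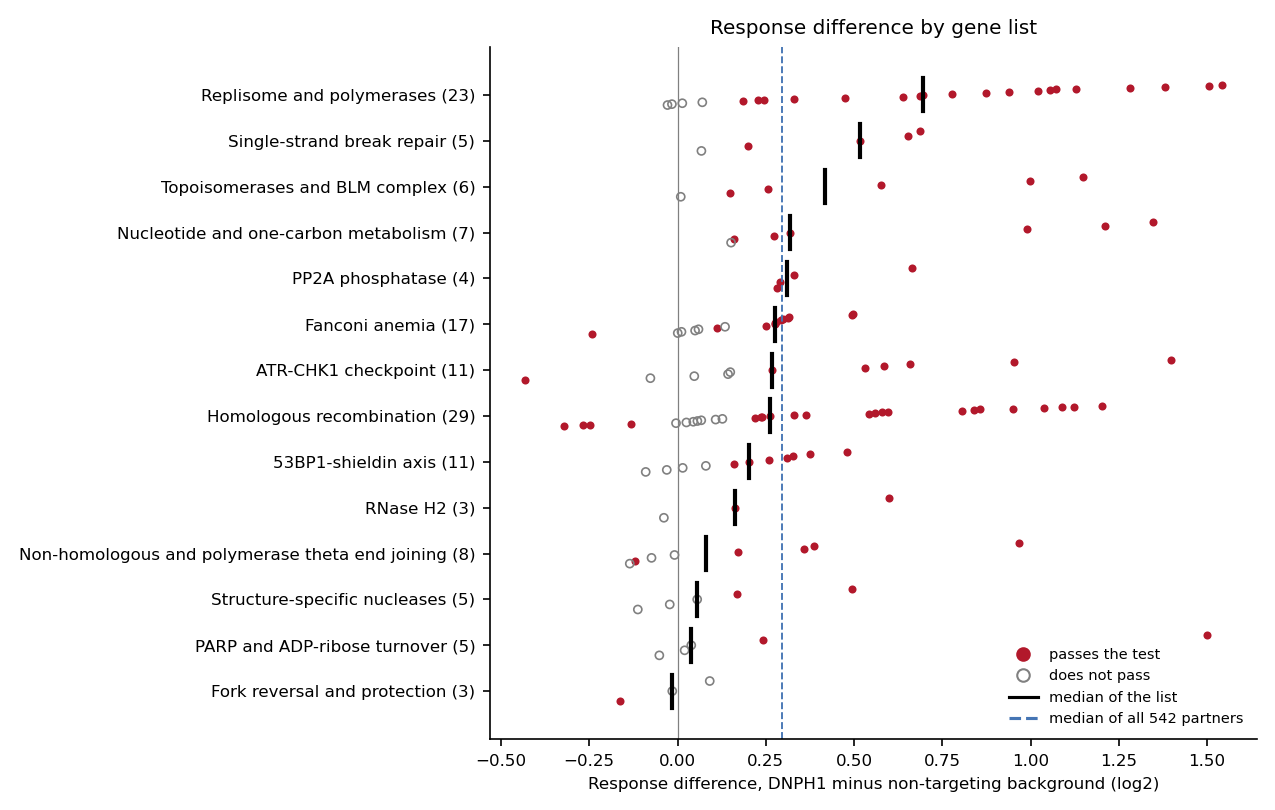
Response difference (log2, DNPH1 minus non-targeting background) of each measured gene in 14 of the 15 lists with at least 3 measured genes, with the number of genes in parentheses. Filled points passed the test, open points did not, black bars are list medians and the dashed line is the median of all 542 partners, 0.30. The replisome list has the highest median, 0.70, and fork reversal and protection the lowest, -0.01.

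The response difference went along with how fast the partner's knockdown grew without drug. Growth of the partner was the log2 ratio of vehicle over T0 reads with non-targeting sgRNAs, relative to constructs with 2 non-targeting sgRNAs. Both measures use the same vehicle reads of the partner with non-targeting sgRNAs and of constructs with 2 non-targeting sgRNAs. All differences also share the constructs of DNPH1 with non-targeting sgRNAs, which do not enter the growth. Across the 542 partners, which are genes and not independent replicates, Pearson's r was -0.85 and Spearman's rho -0.87. It was -0.83 and -0.81 in the cultures of 2022 and -0.80 and -0.81 in those of 2023. In the 26 partners with growth of -2 or below, the median difference was 1.15 and all 26 were higher. In the 121 partners above -2 and up to -1, the median was 0.89, and in the 115 above -1 and up to -0.5 it was 0.53. For the 105 partners above -0.5 and up to -0.2, the median was 0.19, with 67 higher and 7 lower. In the 175 partners above -0.2 the median was 0.01, with 36 higher and 33 lower. Of the 40 lower partners, 33 were thus in the group with the fastest growth.

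The same can be read as the response that DNPH1 repression adds to a partner. Its median was -1.85 in the 175 partners with growth above -0.2, about the value with non-targeting sgRNAs, and it was -1.67, -1.33, -0.97 and -0.71 in the successively slower groups. DNPH1 repression thus depleted cells under the drug in each growth group, and by less in the groups that grew more slowly. The partner's own response went along with the difference more weakly, with Pearson's r of 0.23 and Spearman's rho of 0.44. The part of slow growth in the differences of single genes was not tested by a separate measurement. Some partners did not lie on the common course. PARP1 had a difference of 1.50 at a growth of -0.76, against a median of 0.53 in its group. BRCA1 had 0.94 at -0.49, in a group with a median of 0.19.

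**Figure D4:**
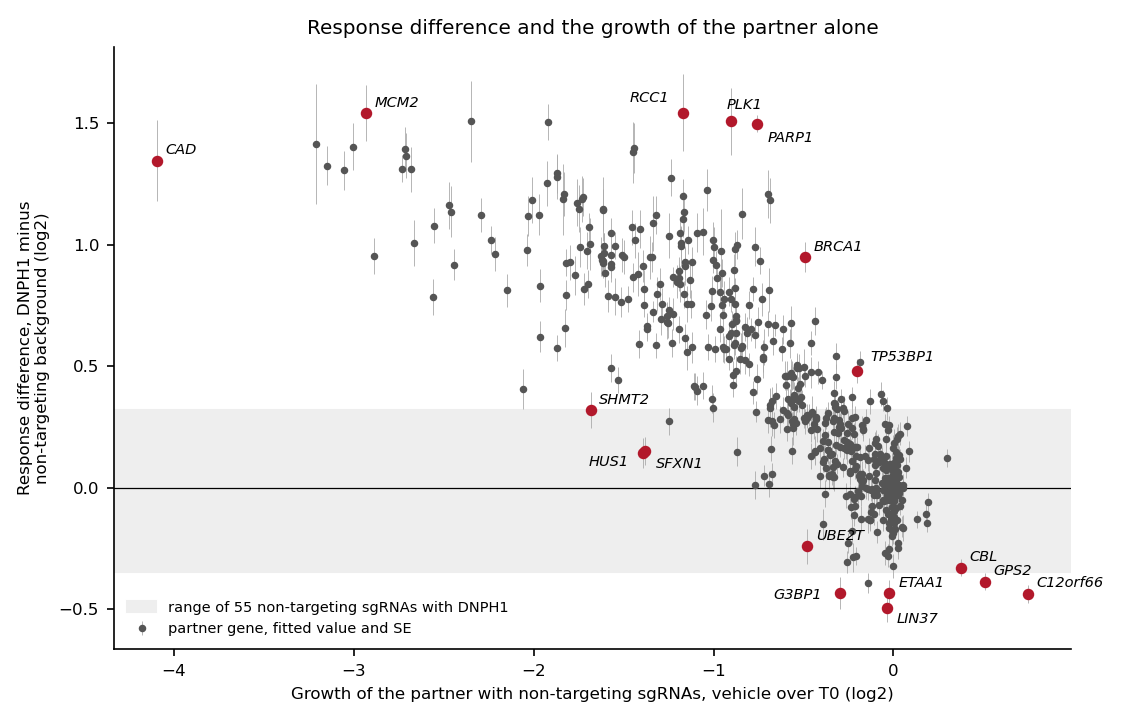
Response difference (vertical axis, log2, DNPH1 minus non-targeting background, fitted value with SE) against the growth of the partner alone without drug (horizontal axis, log2) for 542 partners. The grey band is the range of the 55 non-targeting sgRNAs paired with DNPH1, -0.34 to 0.32, and red points carry gene names. Differences are near 0 at growth near 0 and reach about 1.54 in slow-growing partners such as MCM2.

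The 4 lowest and 4 highest partners were chosen by the difference over all their constructs. Values of single sgRNAs and orders are parts of that difference, so they are a description and not a separate test. For the 4 lowest, LIN37, C12orf66, ETAA1 and G3BP1, the difference was -0.41, -0.33, -0.40 and -0.50 with the first DNPH1 sgRNA alone. With the second, which gives the lower response on its own, it was -0.67, -0.51, -0.47 and -0.27. For the 4 highest, RCC1, MCM2, PLK1 and HAUS1, it was 1.24, 1.39, 1.68 and 1.06 with the first and 1.98, 1.77, 1.48 and 2.08 with the second. All 16 of these values passed the test. With the DNPH1 sgRNA in the first position the 8 partners had -0.43, -0.38, -0.30, -0.49, 1.65, 1.59, 1.55 and 1.59 in the same order. In the second position they had -0.56, -0.46, -0.58, -0.35, 1.43, 1.48, 1.50 and 1.42, so both orders gave the same signs. Among the sgRNAs of the partners, those of LIN37 gave -0.47 ± 0.15 and -0.53 ± 0.16 and those of G3BP1 -0.31 ± 0.08 and -0.61 ± 0.33. The sgRNAs of MCM2 gave 2.00 ± 0.70 and 1.25 ± 0.23, and within the other partners both sgRNAs differed by less than the larger of their SDs.

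**Figure D5:**
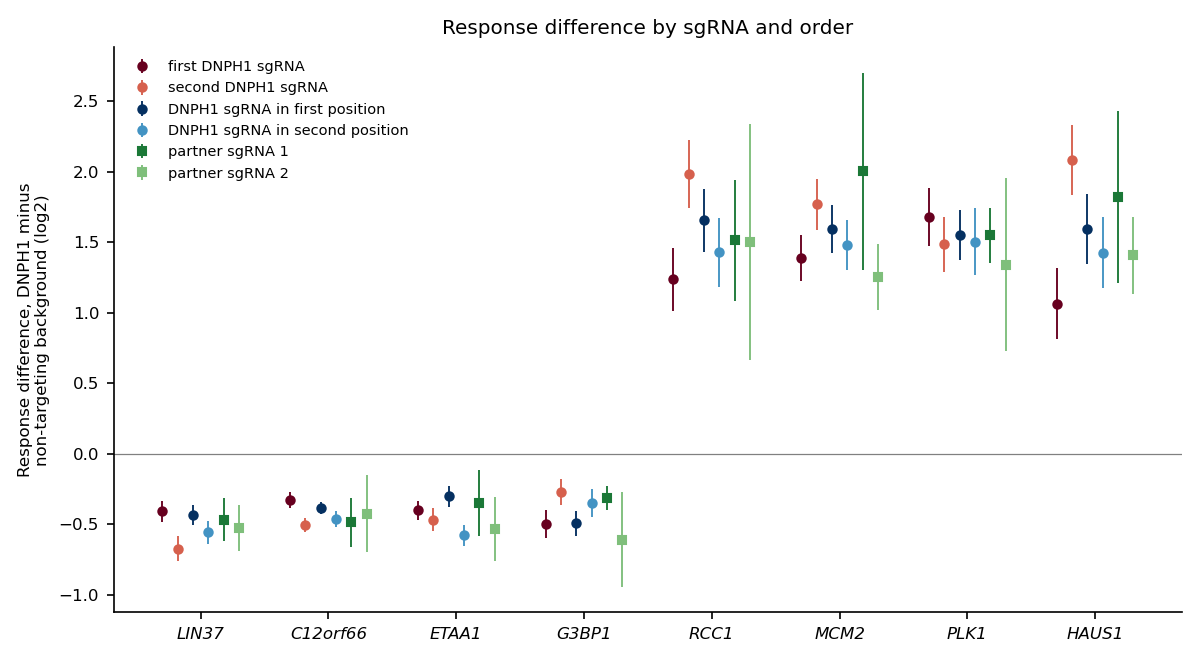
Response difference (log2) of the 4 lowest and 4 highest partners by DNPH1 sgRNA, by the position of the DNPH1 sgRNA (circles, fitted value with SE) and by partner sgRNA (squares, mean of 4 cultures with SD). All values of LIN37, C12orf66, ETAA1 and G3BP1 are below 0, and all those of RCC1, MCM2, PLK1 and HAUS1 are above 0.

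DNPH1 was compared with backgrounds of other genes of strong response, in the same fit. The number of partners that passed in either direction was 398 with DNPH1, 402 with XRCC1, 397 with PARP1 and 398 with BRCA1, against a median of 119 over all 543 backgrounds and 24% of all gene pairs. With PARP1 as the background, most were lower, 284, and 113 were higher. The values below share the libraries, the non-targeting constructs and the partners, so they are given side by side, and differences between backgrounds were not tested. LIN37 had -0.50 with DNPH1, -0.44 with POLB, -0.34 with C4orf27, -0.29 with XRCC1 and 0.02 with BRCA2, of which the last did not pass. ETAA1 had -0.43 with DNPH1, -0.30 with POLB, -0.25 with C4orf27, -0.14 with XRCC1 and -0.16 with BRCA2, of which the last did not pass. G3BP1 had -0.43 with DNPH1, -0.49 with POLB, -0.40 with C4orf27, -0.14 with XRCC1 and 0.05 with BRCA2, of which the last pair did not pass. GPS2 had -0.39, -0.44, -0.31, -0.16 and -0.30 in the same order. LZTR1 had -0.39 with DNPH1, -0.05 with POLB, -0.17 with C4orf27, 0.05 with XRCC1 and 0.21 with BRCA2. Its values with POLB and XRCC1 did not pass, and that with BRCA2 passed as higher. C12orf66 had -0.44, -0.37, -0.35, -0.15 and 0.18 in the same order, and all of these passed. PARP1 had 1.50 with DNPH1, 1.89 with POLB, 0.64 with C4orf27, 1.45 with XRCC1 and 0.87 with BRCA2. MCM2 was high in all of these, with 1.54, 1.44, 1.06, 1.07 and 1.89 in the same order of backgrounds.

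Without drug, few partners differed between the backgrounds. The growth difference, the growth of the pair minus the growth of both knockdowns alone, passed for 13 partners as lower and 1 as higher. These are 2.4% and 0.185% of the partners. Over all gene pairs 2.84% were lower and 38.1% were higher. The share of lower partners was thus near this background, and that of higher partners was below it. The lowest were PARP1 with -0.31 (SE 0.04, adjusted p = 2.4e-10) and XRCC1 with -0.30, then RIOK1, a kinase of ribosome assembly, with -0.23. NAMPT had -0.20 and BRCA2 -0.17. The higher one was YWHAE, an adaptor of the 14-3-3 family, with 0.11. PARP1, XRCC1, NAMPT and BRCA2 were thus lower with DNPH1 without drug and higher by the response difference, and both values share the vehicle libraries. These calls depend on single cultures, since 4 lower calls were left without either culture of 2022.

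The 2 screens differ in dose and days in drug, and the change of the response difference between them, 2023 minus 2022, was tested for each partner. It passed for 1 of 542 partners, the spindle checkpoint gene BUB3, and 0.015% of all gene pairs passed. BUB3 had a response difference of 1.17 and 0.99 in 2022 and 0.47 and 0.56 in 2023. The values of the screens did not overlap for BUB3. An unadjusted p under 0.05 was found for 88 partners.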

How the data were processed

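Per the labels' protocols, genomic DNA served as the PCR template for the sgRNA loci, with no molecular identifiers named, and the submitters' processing notes name Bowtie2 2.3.4.1. The authors' deposited counts are whole reads per construct, not normalized. The authors also deposited log2 phenotypes, from which only a constant per replicate (1 alternative) was taken. Counts were summed over the 8 constructs of a pair. The log count of both genes with non-targeting sgRNAs, relative to constructs with 2 non-targeting sgRNAs, was the offset. All pairs of the library (176880 rows with at least 100 mean T0 reads) and all 12 libraries in 6 groups entered one fit with edgeR 4.0.16 in R 4.3.3 (glmQLFit, glmQLFTest), in which every culture was a block and the arms had their own terms in either screen. Benjamini-Hochberg adjustment ran over all rows, with a threshold of 0.05. Responses within a background were fitted in the same way over all ordered pairs. SEs come from within screens with 4 residual degrees of freedom, together with a spread pooled over all rows and all 12 libraries, T0 included. That pooled spread had 46.6 prior degrees of freedom in the response difference fit, so SEs and p-values rest largely on it. They do not measure the spread of a single pair over the 4 cultures. For PARP1 the adjusted p was 6.29e-06 with limma at a pseudocount of 1 and 1.29e-161 with edgeR on endpoint libraries alone.

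Per the labels, each replicate culture was divided into its arms, which pairs the libraries. The replicate 1 minus replicate 2 differences of the 542 partners correlated between arms at -0.05 to 0.06, so the pairing rests on the labels. Counts were also simulated from the fit's own means, spread and offsets. There the response difference fit recovered 54.55%, 91.04% and 100% of changes of 0.25, 0.5 and 1 among 176880 rows, with 9 false calls. This simulation held no variation between sgRNAs, so it cannot give the rate of false calls in the measured counts. In those, 668 of 29756 rows of a gene with a single non-targeting sgRNA passed. limma 3.58.1 and DESeq2 1.42.0 served as alternatives.

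Named genes were the 12 lowest and 12 highest differences that passed with the same sign in all 4 cultures, the 6 lowest and 6 highest in the DNPH1 background, a fixed set of PARP, base excision, NAD and BRCA genes, and up to 4 members of each list with the largest absolute differences. The members, lists and named genes were chosen with earlier results of these data known. The list of base excision glycosylases had no measured gene. Results for some genes are not reported here.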

Additional observations from a re-analysis of the deposited data

Results flagged for a closer look

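The change of the response difference between the screens, 2023 minus 2022, was -0.57 for BUB3, a spindle checkpoint gene, the one partner of 542 for which that contrast passed the test. BUB3 remained above 0 in all 4 cultures. Without the replicate block no partner passed.

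For PPP2R1A, the scaffold of PP2A, the second culture of 2023 gave a response difference of 0.53, far from the other 3 cultures, which ran from 0.70 to 0.72. Among the 79 named partners checked in this way it was the only such case, and chance alone flags about 1 in 20 groups.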

How the results depend on the processing

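The counts of partners held under most settings, with more change in the lower than in the higher calls by response difference. Without the replicate block, 39 partners were lower and 356 higher by response difference, 110 and 310 in the DNPH1 background, 13 and 1 by growth difference, and 0 in place of 1 differed between the screens. Leaving out each replicate in turn gave 29 to 31 lower and 331 to 344 higher by response difference and 91 to 114 lower and 293 to 316 higher in the DNPH1 background, and 4 to 13 lower and 0 to 5 higher by growth difference. Lower calls by response difference numbered 24 in the 2023 screen alone, 24 with DNPH1 in the first position alone and 24 with limma at a pseudocount of 1, in place of 40. The first DNPH1 sgRNA alone gave 29 lower and 341 higher, of which 25 and 330 were also called with both sgRNAs. The second alone gave 46 lower and 306 higher, of which 29 and 300 were also called with both. DESeq2 gave 28 lower and 341 higher, and all of these were also called by edgeR in the same direction. After the data were seen, 3 settings were added: endpoint libraries alone gave 38 and 351, equal weight for each construct 33 and 330, of which 31 and 325 were also called before, and a curve of degree 2 on the partner's own growth 98 and 88, of which 27 and 84 were also called before.

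Settings that redefine 0 changed the counts and directions. Centring on the median of all partners gave 220 lower and 214 higher by response difference and 214 lower and 240 higher in the DNPH1 background, and a curve of degree 2 on the partner's own response gave 229 lower and 169 higher. With the centred background the response differences that changed sign were PARP2 -0.28, PARG -0.30, POLB -0.12, LIG3 -0.25, RAD54L -0.099, CHD1L -0.075, FANCG -0.0017, FANCM -0.0054, RNASEH2B -0.15, CTC1 -0.0077, LIG4 -0.15, ZRANB3 -0.23, ERCC1 -0.15, GEN1 -0.26, RMI2 -0.060, MSH6 -0.044, PPP4C -0.026 and PPP2CA -0.035. With the curve on own response they were PARP1 -0.97, PARP2 -0.38, PARG -0.39, POLB -0.17, BARD1 -0.78, TP53BP1 -0.011, RAD54L -0.0062, CHD1L -0.088, SHMT2 -0.62, RNASEH2B -0.16, FAM35A -0.085, CTC1 -0.086, NHEJ1 -0.012, XRCC6 -0.10, LIG4 -0.23, ZRANB3 -0.31, ERCC1 -0.24, GEN1 -0.37, RMI2 -0.12, MSH6 -0.065, PPP2R1A -0.30, PPP2R2A -0.47 and PPP2CA -0.55. With the curve on own growth they were C12orf66 0.25, GPS2 0.072, CBL 0.0100, RAD54L -0.048, MTHFD1 -0.017, SHMT2 -0.65, FANCM -0.013, ATR -0.0023, RAD9A -0.38, RNASEH2C -0.0019, RNASEH2B -0.037, XRCC6 -0.047, GEN1 -0.19, BLM -0.15, MSH6 -0.082, PPP2R1A -0.19, PPP2R2A -0.34, PPP4C -0.019 and PPP2CA -0.16. Of the 24 lowest and highest partners, AUNIP did not pass with the first DNPH1 sgRNA alone (-0.15) and ZAR1L with DNPH1 in the second position alone (-0.21), and MCM2 (0.28), HAUS1 (0.33), NOL6 (0.15), DCTN3 (0.15), DKC1 (0.16) and IPO13 (0.13) with the curve on own growth. C4orf27, which did not pass before, passed as lower with the centred background (-0.37), in the second position alone (-0.25) and with the curve on own response (-0.26). Over 79 named partners and all settings, 1763 of 1930 values kept their direction and their side of the threshold. Beyond the settings above, the causes of changed calls were not tested. Depth limits partners with under 100 niraparib reads, such as BARD1 and NOL6.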

Other observations

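Some partners stood apart from others of like growth, as residuals from the curve of degree 2 on the partner's own growth without drug, a setting added after the data were seen and fitted with limma. The most positive residuals were those of PARP1 (0.97, SE 0.04), PLK1 (0.89, SE 0.16) and RCC1 (0.78, SE 0.18). They were followed by RBM8A and EIF4A3, which together form the core of the exon junction complex and had 0.72 and 0.70, and by BRCA1 with 0.59. These were chosen by their values, so they are a description.

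The most negative residual was that of HUS1, a subunit of the checkpoint clamp, at -0.73. HUS1 had a response of 0.28, 0.07, -0.17 and -0.17 with DNPH1 against 0.24, -0.33, -0.24 and -0.22 with non-targeting sgRNAs, although it grew slowly alone, at -1.39 ± 0.30. Its difference of 0.14 ± 0.17 did not pass. SFXN1, a mitochondrial serine transporter, and SHMT2 and MTHFD2, mitochondrial one-carbon enzymes, had residuals of -0.70, -0.65 and -0.51. They had responses of 0.81 ± 0.32, 1.15 ± 0.47 and 0.92 ± 0.37 with DNPH1 against 0.66 ± 0.21, 0.84 ± 0.29 and 0.64 ± 0.17 with non-targeting sgRNAs. MTHFD1, a cytosolic one-carbon enzyme, had a residual of -0.02, and UMPS and CAD of pyrimidine synthesis did not appear at either end. Residuals at the negative end were also those of ZNF574 with -0.70, G3BP1 with -0.65, UBE2T with -0.58 and C7orf26 with -0.52. The partners at this end were chosen by their values too, so they are a description as well.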
